A study of Oryza sativa with 12 samples.

Results

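Wild-type rice seed and seed labelled as an OsMFT1 knockout were compared while both stood in salt, to ask how their transcripts differ under stress. The comparison set 3 libraries of osmft1 seed in 300 mM NaCl against 3 libraries of wild-type seed in 300 mM NaCl. All gene IDs with at least 1 FPKM in 3 or more of these 6 libraries entered it, 19715 of the 35204 IDs listed. FPKM scales the reads counted at a gene by the gene's length and by the library's total. Of the 15489 IDs left out, 2903 had no read in any salt library and 12586 had some.

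The wild type was Zhonghua 11 (WT), a japonica rice cultivar, and the mutant carried a knockout of OsMFT1 (osmft1) according to its labels. Seeds were surface-sterilised, laid on wet filter paper in plates at 28 °C with a daily light period, and given water or 300 mM NaCl that was renewed each day. The series holds 12 libraries in 4 groups of 3, WT and osmft1 in water and in salt, each made from total RNA of whole seed. The kind of mutation, the number of mutant lines behind the libraries, the sampling time and the germination stage are not given in the labels used here, so a difference in stage between the genotypes cannot be told apart from an effect of the mutation. Nothing in the labels says that the 3 libraries of a group came from separate seed lots, and the spread that p-values rest on here may in part be technical.

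MOTHER OF FT AND TFL1 proteins belong to the phosphatidylethanolamine-binding protein family, which also holds the flowering signal FT and its antagonist TFL1. In Arabidopsis, MFT acts in the seed within the abscisic acid and gibberellin pathways, the hormones that hold back and drive germination. Salt slows water uptake and germination of rice seed and raises abscisic acid signalling. The files carry no gene names and the gene table at hand matched 1 of the 35204 IDs, so loci appear by ID, with 2 in each direction, and no function is given for them. Seed storage and embryo markers could therefore not be looked up, and the labelled tissue was not checked.

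Implied totals of the 6 salt libraries ran from 14379728 to 14878342 counted reads, a highest over lowest of 1.035. A principal component analysis of these 6 libraries parted the genotypes on its first axis, with 37.8% of the variance. The osmft1 libraries stood at 35.4, 19.3 and 32.4 on it and the WT libraries at -29.7, -35.0 and -22.4. The second axis, with 18.1% of the variance, set osmft1 replicate 2 (-34.2) and WT replicate 2 (-21.6) against the other 4 libraries (6.19 to 19.8). The third, with 17.3%, set osmft1 replicate 1 (32.1) and WT replicate 2 (22.2) against the rest (-23.7 to -6.51). Replicate 1 of osmft1 thus stood with its own group on the axis of genotype and apart from it on the third. Replicate 2 of osmft1 was the lowest of its group on the first axis and stood apart from it on the second, larger than the third.

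The targeted locus did not check the genotype labels. Os06g0498800, taken as OsMFT1 from published knowledge and paired with that name neither in the files nor in the gene table, held 0.685, 0.177 and 0.616 FPKM in the osmft1 salt libraries. In the WT salt libraries it held 0.264, 0.513 and 0.0872 FPKM. The groups overlapped, on 17 reads in osmft1 and 10 in WT, and the difference in log2(FPKM + 1) was 0.21 (exact permutation test, two-sided, p = 0.4, with 0.1 the smallest p that 3 against 3 libraries allow). The highest count of 8 reads has an exact 95% Poisson interval of 3.45 to 15.8 reads and the lowest, 1 read, one of 0.0253 to 5.57. No difference was detected, and reads this few cannot resolve a small one. Each of the 3 osmft1 libraries held reads of the locus, so a loss of its transcript was not seen. A knockout that leaves the transcript in place would not show here at any depth.

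In salt, 543 IDs differed between osmft1 and WT at an adjusted p under 0.05 (limma on log2(FPKM + 1), Benjamini-Hochberg over the 19715 IDs), 2.75% of those tested. Higher levels in osmft1 made up the larger part, with 397 IDs higher (2.01% of those tested) and 146 lower (0.741%), a share of 73.1% higher. Of the called IDs, 200 were higher and 69 lower by at least 2-fold, and 24 higher and 4 lower by at least 4-fold. The size of a called difference had a median of 1.00 on the log2 scale, with quartiles of 0.73 and 1.35, and ran from 0.42 to 5.44. Fold changes on this scale understate the change of low genes. At an unadjusted p under 0.05, 3919 IDs passed, 2840 higher and 1079 lower. In all 543 called IDs the osmft1 libraries lay wholly above or wholly below the WT libraries, which also held for 26% of all IDs tested.

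**Figure D1:**
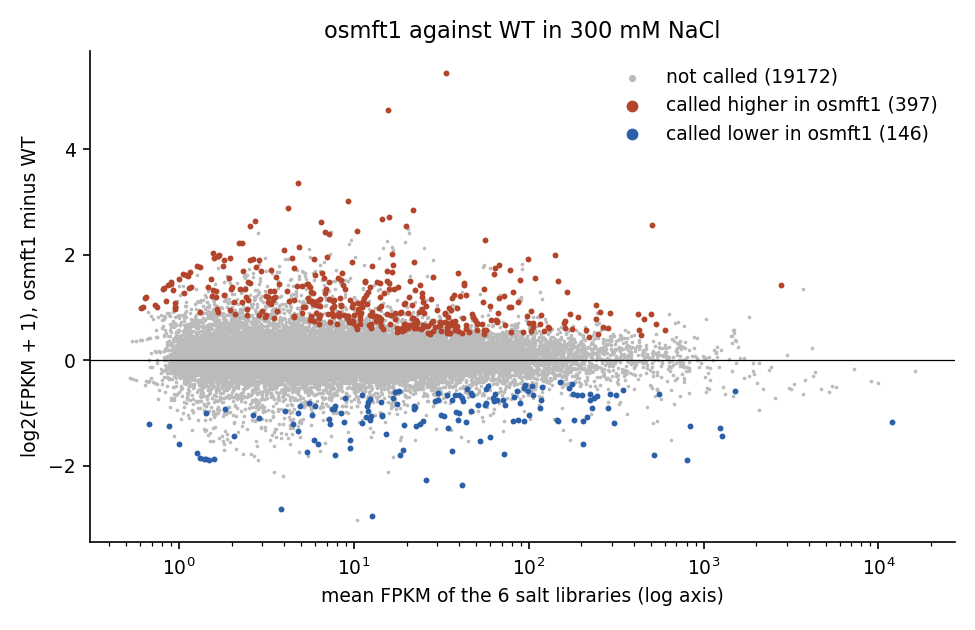
Difference in log2(FPKM + 1) between osmft1 and WT in salt (vertical axis) against the mean FPKM of the 6 salt libraries (horizontal, log axis), 1 point per ID. Red points are the 397 IDs called higher in osmft1, blue points the 146 called lower and grey points the other 19172; the called IDs span the whole range of levels.

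The lean toward higher levels depended on how the libraries were scaled. The median difference of all tested IDs was 0.06 as deposited, and 59.3% of IDs were above 0. Median-ratio scaling, which brings the typical ID to the same level in every library, gave a median of -0.01 and 346 calls, of which 181 were higher and 165 lower, a share of 52.3% higher. Upper-quartile scaling gave 176 higher and 176 lower. The most abundant transcripts moved with this balance. The 50 most abundant IDs took 19.4%, 18.9% and 19.7% of all FPKM in the osmft1 salt libraries and 23.6%, 23.0% and 22.1% in the WT salt libraries. These shares did not overlap (19.3 ± 0.447% against 22.9 ± 0.743%, SD, n = 3; exact permutation test, two-sided, p = 0.1, the smallest this design allows). Of the 50, 33 were lower in osmft1 by estimate (36 with median-ratio scaling). Only 2 were called lower and 1 was called higher, where 0.741% and 2.01% of all tested IDs were, too few calls to set the 50 apart. With the 50 left out and the rest rescaled, 416 IDs were called and 63.2% were higher. The part of these transcripts in the balance was not tested further.

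Every single library mattered to the number of calls. Without osmft1 replicate 1 it was 122, without osmft1 replicate 2 it was 109, and without osmft1 replicate 3 it was 61. Without WT replicate 1 it was 59, without WT replicate 2 it was 163, and without WT replicate 3 it was 158. In each of these fits more IDs were higher than lower in osmft1, from 64.4% to 75.4% of the calls. A fit that took its spread from all 12 libraries called 1278 of the same 19715 IDs, 1006 higher and 272 lower, and 484 of the 543 IDs were among them in the same direction.

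**Figure D2:**
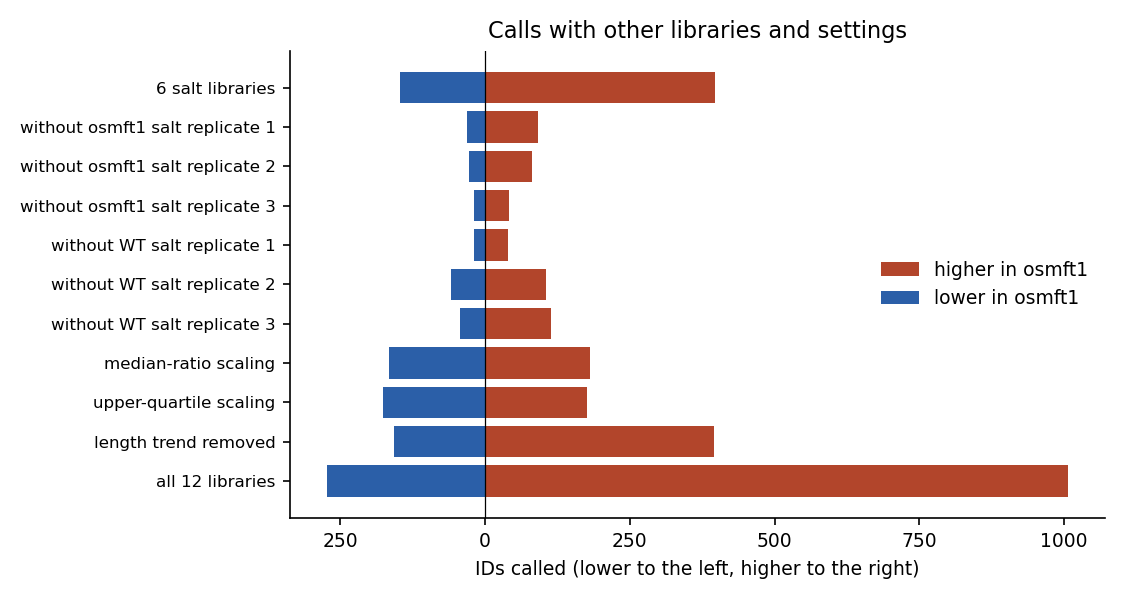
Number of IDs called higher (red, to the right) and lower (blue, to the left) in osmft1 in salt with all 6 libraries, without each library, and with 4 other settings. Leaving out 1 library lowers the count to between 59 and 163, and both rescalings even out the directions.

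Leaving out osmft1 replicate 1 changed how many IDs passed far more than it changed the differences. Of the 122 IDs called without it (0.619% of those tested), 92 were higher and 30 lower. Among them, 107 were also called with all 6 libraries, which is 87.7% of the shorter list and 19.7% of the longer. All 543 IDs kept their direction without it, as did 17857 of all 19715 tested IDs. All 543 also had an unadjusted p under 0.05 (limma), which 16.2% of all tested IDs had. The 2 fits share 5 libraries, and the 543 IDs were chosen by the fit of all 6. Their direction, p and size without replicate 1 were thus largely set by that choice and are no independent support. The median difference of the 397 higher IDs was 1.00 with the library and 1.00 without it, and that of the 146 lower IDs was -0.97 and -0.96. The median standard error over all IDs went from 0.18 to 0.20.

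Among the 397 higher IDs, osmft1 replicate 1 was the highest of the 3 osmft1 libraries at 112, replicate 2 at 110 and replicate 3 at 175. Over all 19715 tested IDs these counts were 5746, 8825 and 5135. Replicate 1 was the lowest at 162 of the 397 and at 5938 of all tested IDs. There were 410 IDs with at least a 2-fold difference and no call, 264 higher and 146 lower in osmft1. At 133 of the 264, osmft1 replicate 1 was the highest of the 6 libraries, against 66 for replicate 2 and 62 for replicate 3. A call requires a small spread, so the larger spread of uncalled IDs and a library standing out among them follow from how they were chosen. In these 410 IDs the SD over 3 libraries had a median of 0.66 in osmft1 and 0.59 in WT on the log2 scale. In the 269 called IDs of at least 2-fold it was 0.25 and 0.24. The levels of the uncalled IDs were also lower, with a median of 4.24 FPKM against 7.70 FPKM in the called ones. The genotypes overlapped at 153 of the 410 and did not at 257, where 26% of all tested IDs did not overlap. The 410 were chosen for a difference of at least 2-fold, so this share follows in part from that choice.

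Os10g0344800, a locus on chromosome 10 by its ID, had the largest rise among the loci eligible to be named. It held 20.5, 57.4 and 16.2 FPKM in the osmft1 salt libraries and 0.126, 0 and 0 FPKM in the WT salt libraries. Every osmft1 library held at least 258 reads, and WT held 2 reads in all, both in replicate 1. It reached 1 FPKM in the osmft1 libraries alone, so it was tested because it differed, and its p is no independent support. The fitted log2 difference was 4.74 ± 0.42 (SE; limma, adjusted p = 0.00723), and because WT was at or near 0 its size depends on the pseudocount: it was 2.68 with a pseudocount of 5 and 8.98 with voom on recovered reads. The ratio of reads, 1502 against 2 and corrected for depth, was 755 with an exact 95% binomial interval of 209 to 6240, which covers counting error only.

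Os01g0962700, on chromosome 1, held 13.9, 11.997 and 25.6 FPKM in the osmft1 salt libraries. In the WT salt libraries it held 1.34, 2.12 and 0.344 FPKM, all below the lowest osmft1 value. The log2 difference was 3.01 ± 0.37 (SE; limma, adjusted p = 0.0148). It lost its call without WT replicate 1 or without osmft1 replicate 3 (limma, adjusted p = 0.0577 and 0.0595), and over all alternatives its adjusted p ran from 0.000541 to 0.0614.

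Os12g0597800, on chromosome 12, had the largest fall among the loci eligible to be named. It held 3.06, 2.44 and 1.13 FPKM in the osmft1 salt libraries and 27.5, 21.8 and 20.7 FPKM in the WT salt libraries. All 3 osmft1 values lay far below the lowest WT value, and the difference on the log2 scale was -2.96 ± 0.25 (SE; adjusted p = 0.00723 in limma). Os02g0727200, on chromosome 2, held 11.9, 11.8 and 14.4 FPKM in the osmft1 salt libraries. It held 78.2, 68.0 and 63.9 FPKM in the WT salt libraries. Both groups were tight, and the difference of -2.38 ± 0.13 (SE) on the log2 scale had the smallest adjusted p of all IDs tested (0.00266 in limma).

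The 4 loci differed in the same direction in the water libraries, which share no library with the salt comparison. In water, osmft1 held 44.3 ± 15.3 FPKM of Os10g0344800 and WT 0.0392 ± 0.0340 FPKM (SD, n = 3). Os01g0962700 stood at 34.2 ± 7.95 and 4.26 ± 0.543 FPKM, so that both genotypes held more of it in water than in salt. Os12g0597800 stood at 0.0665 ± 0.0464 and 5.95 ± 0.765 FPKM, so that both genotypes held less of it in water than in salt. Os02g0727200 stood at 10.5 ± 2.102 and 42.9 ± 3.80 FPKM. The genotype difference in salt was not shown to differ from that in water at any of the 4 (limma interaction over 12 libraries, adjusted p from 0.154 to 0.677).

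**Figure D3:**
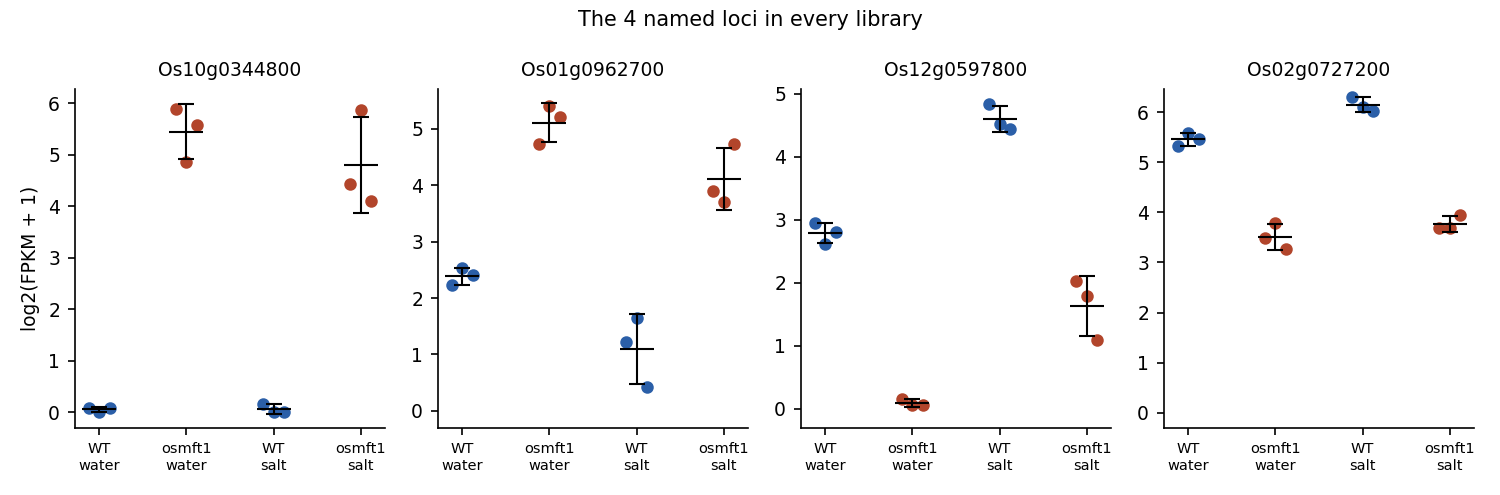
Levels of the 4 named loci as log2(FPKM + 1) in each of the 12 libraries, WT in blue and osmft1 in red, with the mean (bar) and SD (whiskers) of 3 libraries. The osmft1 and WT points do not overlap in water or in salt at any of the 4, and the vertical scales differ between panels.

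The loci called in salt were set beside their levels in water. Their salt levels were what chose them and are given as a description, and comparisons of salt with water share the salt libraries that chose them. The 397 IDs higher in osmft1 had a median level of 4.19, 4.19 and 4.36 in the osmft1 salt libraries and 3.09, 3.14 and 3.17 in the WT salt libraries, on log2(FPKM + 1). In water the same IDs stood at 4.02, 4.34 and 4.29 in WT and at 4.58, 4.59 and 4.64 in osmft1. The osmft1 salt libraries thus lay near the WT water libraries, and the WT salt libraries below all others. In WT, 306 of the 397 (77.1%) had a higher mean in water than in salt, against 44.1% of all tested IDs, and the median salt-minus-water difference was -0.89. In osmft1, 255 (64.2%, against 52.7% of all tested IDs) were higher in water, with a median of -0.33.

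The 146 IDs lower in osmft1 had another pattern. Their median level was 4.65, 4.64 and 4.54 in the osmft1 salt libraries and 5.60, 5.61 and 5.53 in the WT salt libraries. In water they stood at 4.18, 4.06 and 3.88 in WT and at 3.37, 3.49 and 3.27 in osmft1. WT salt was the highest of the 4 groups and osmft1 water the lowest, and osmft1 salt lay above WT water rather than near it. In WT, 14 of the 146 (9.59%) had a higher mean in water than in salt, with a median salt-minus-water difference of 1.16. In osmft1 32 (21.9%) did, with a median of 0.77.

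**Figure D4:**
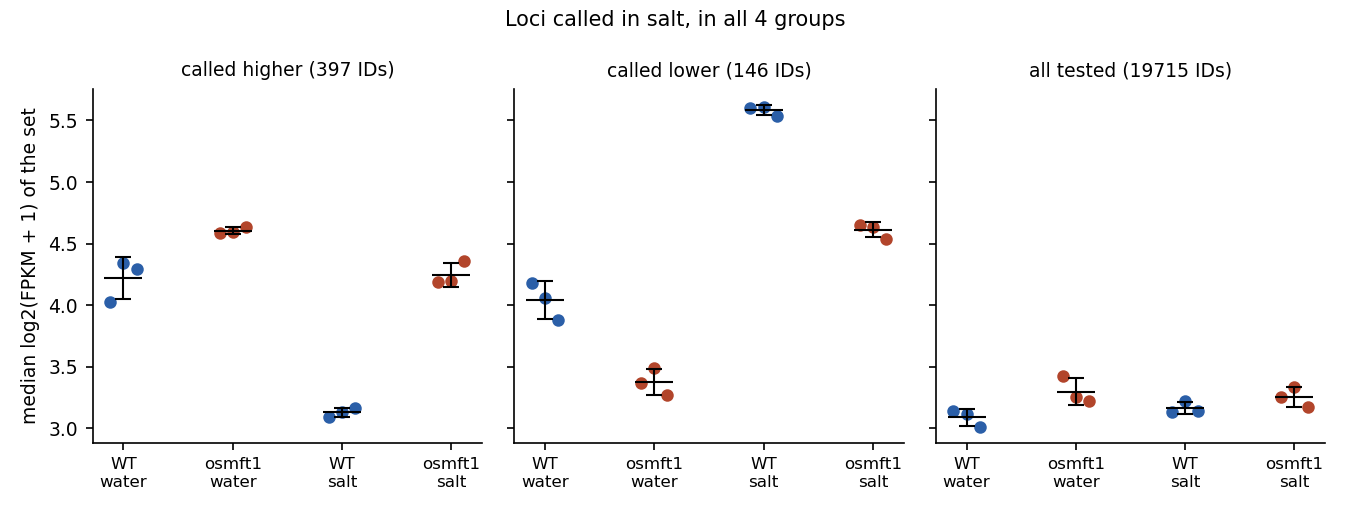
Median log2(FPKM + 1) over the IDs called higher (left), called lower (middle) and all tested (right) in each of the 12 libraries, with the mean (bar) and SD (whiskers) of 3 libraries. In the left panel the osmft1 salt libraries (4.19 to 4.36) lie near the WT water libraries (4.02 to 4.34) and in the middle panel WT salt (5.53 to 5.61) lies above the other groups.

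The genotype difference of the called IDs was then read in the water libraries, which played no part in choosing them. Of the 146 lower IDs, 118 (80.8%) were also lower in osmft1 in water by estimate, against 40.3% of all tested IDs. Among the 146, 65 were called lower (44.5%), where 8.69% of all tested IDs were called lower in water, and 0 were called higher. Of the 397 higher IDs, 261 (65.7%) were also higher in water by estimate, near the 59.3% of all tested IDs. Among the 397, 129 were called higher (32.5%), where 15.8% of all tested IDs were called higher in water. A further 26 of them were called lower in water. Median genotype differences in water were 0.22 for the higher set and -0.57 for the lower set, beside 0.12 for all tested IDs. Whether the higher and lower sets differ in this was not tested.

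Calls were spread over all 12 chromosomes, read from the Os IDs. The share of tested loci called higher ran from 1.51% on chromosome 3 (38 of 2522) to 3.16% on chromosome 7 (45 of 1422), beside 2.01% of all tested IDs. The share called lower ran from 0.403% on chromosome 9 (4 of 992) to 1.20% on chromosomes 10 (11 of 920 loci) and 12 (12 of 1004 loci), beside 0.741%. Median differences of the chromosomes lay between 0.04 and 0.08, around the 0.06 of all tested IDs.

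Chromosome 7 held a run of neighbouring loci with several higher calls, 5 of the 45 on that chromosome. In RAP numbering, which orders loci along a chromosome, the 18342 windows of 10 neighbouring tested loci held at most 5 loci called higher, and 15067 held none. Windows of at least 4 covered 14 loci on chromosome 7, the 362nd to the 375th of the 1422 tested there. Of these 14, 13 were higher in osmft1 by estimate, 9 by at least 2-fold, and 5 were called higher. Of all tested IDs, 59.3% were higher by estimate and 2.01% were called higher. Their median level was 4.30, 3.75 and 4.74 in the osmft1 salt libraries and 2.87, 2.94 and 2.52 in the WT salt libraries on log2(FPKM + 1). The median difference in salt was 1.24 and stayed at 1.24 without osmft1 replicate 1. In the limma fit without that library 0 of the 14 were called higher, where 92 of all 19715 tested IDs were. With so few calls over all IDs, 0 among 14 loci says little. In the fit of all 12 libraries 7 of the 14 were called higher, where 5.1% of all tested IDs were. In water the same loci had a median difference of 2.78 and 11 of the 14 were called higher, where 15.8% of all tested IDs were. The run was found from these values, so its size is a description. The rest of chromosome 7 had 40 loci called higher (2.84%, still above the share of any other chromosome) and a median difference of 0.08.

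**Figure D5:**
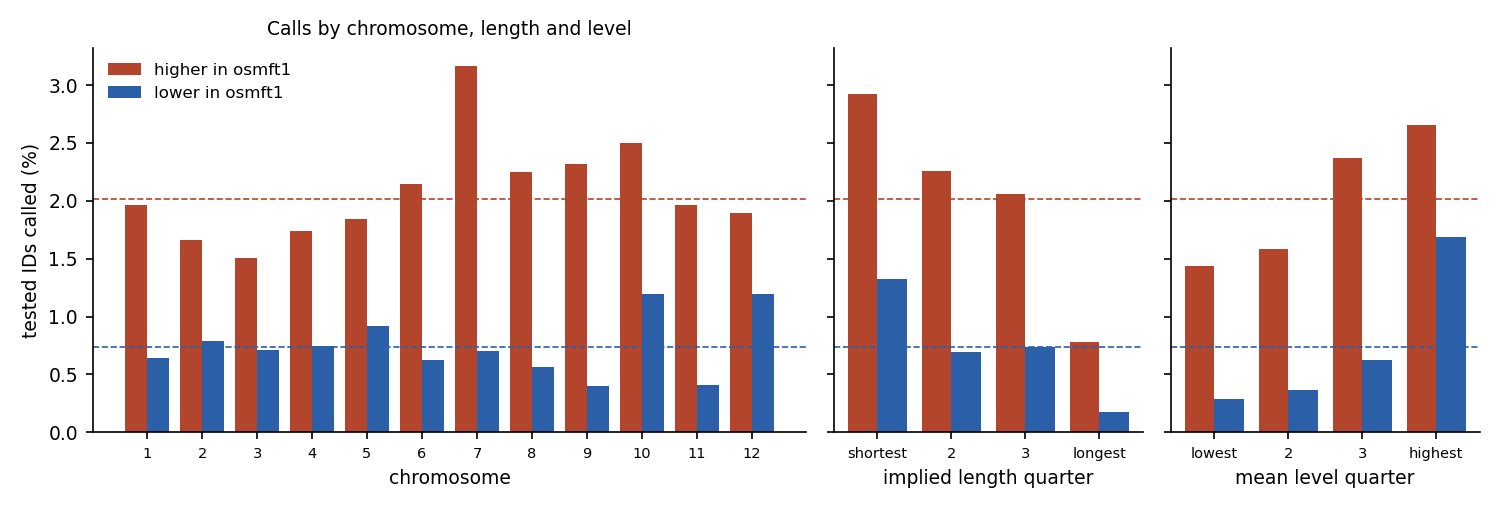
Percentage of tested IDs called higher (red) and lower (blue) in osmft1 in salt, for Os loci by chromosome, for Os loci by implied length and for all IDs by mean level, each in 4 equal bands. Dashed lines mark the shares over all tested IDs, 2.01% higher and 0.741% lower; chromosome 7 and the shortest loci have the tallest red bars.

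Short loci were called more often than long ones, although long loci gather more reads at the same FPKM. Of the 4613 Os loci in the shortest 25%, with a median implied length of 738 bases, 135 were higher and 61 lower (4.25% called). Of the 4613 in the longest 25%, with a median of 2850 bases, 36 were higher and 8 lower (0.954%). The median difference fell along the 4 bands of length, at 0.11, 0.09, 0.08 and 0.01, and that of the longest band lay 0.05 below the median of all tested IDs. With each library's trend on length taken out, 552 IDs were called and 499 of the 543 were among them in the same direction. The levels of the bands also differed, with median mean levels of 11.2 FPKM in the shortest and 6.17 FPKM in the longest, and the part of level in these shares was not tested.

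Calls grew more frequent with level. In the lowest 25% by mean level, 71 of 4929 IDs were higher and 14 lower (1.72% called). In the highest 25%, 131 of 4929 were higher and 83 lower (4.34%). The IDs with the prefix EPlOSAG, with a median implied length of 64 bases, were called about as often as the Os loci. Of 1262 tested, 27 were higher and 11 lower (3.01%), against 370 higher and 135 lower of 18450 Os loci (2.74%). Their median difference was 0.00 against 0.07 for the Os loci. The other 3 tested IDs, with the prefix ENSRNA, had 0 calls.

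The filter on low values bore on the calls. Without it 103 IDs were called of the 32301 then tested, and with at least 1 FPKM asked of all 6 libraries 672 were called of 17131. An ID whose values reached 1 FPKM in the 3 osmft1 libraries and in no WT library had to differ between the groups to be tested. There were 180 such IDs, 58 of them called higher (32.2%, against 2.01% of all tested IDs), and 40 of the opposite kind, 12 of them called lower (30.0%, against 0.741%). These shares follow from how the IDs were kept. At the edge of the filter, 354 IDs had a third-highest value of 1 to 1.1 FPKM and 3 of them were called (0.847%, against 2.75% of all tested IDs). Another 397 IDs, with a third-highest value of 0.9 to 1 FPKM, were left out.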

How the data were processed

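Each library came as a file of its own, with a single value for each ID. The genome build IRGSP-1.0 and the tools Bowtie2 2.2.3, HTSeq 0.6.0 and HISAT2 2.1.0 are listed in the submitters' processing notes without saying what each was used for. How the values were made from counts, and with which annotation and strand setting, is not given in the sources used here, so overlapping, antisense or near-identical genes may share reads. No header states the unit. The deposited values were taken as FPKM, because within an ID they are whole multiples of 1 step once each library's relative depth is allowed for. The steps gave each library's total, the reads of each ID and an implied length for it (the shortest, in whole bases, at which all its values are whole reads). All 326535 values above 0 came out whole within 0.003 reads. The lengths were chosen to make them whole, so this is no independent check. Reads served depth, intervals and voom.

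IDs were tested on log2(FPKM + 1) with limma 3.58.1 in R 4.3.3 over the 6 salt libraries, 1 mean per genotype, a variance trend and 4 residual degrees of freedom. The tests were run on simulated reads with the same dispersion at every ID and libraries that differed only in depth and in the IDs set to change. Such a run does not check the calls against the spread between these libraries. Named loci were Os IDs called, not overlapping, with at least 10 FPKM in the higher group and an unadjusted p under 0.05 in the same direction without osmft1 replicate 1, the 2 largest differences each way. Members, lists and this rule were chosen with earlier results of these data known. Lists by gene product were planned and could not be used without names. Same-numbered osmft1 and WT libraries did not deviate together (correlations of -0.0350, 0.0435 and 0.0136), and no block was used. Replicates of a group differed by 10.5 to 24.4 in chi-square per degree of freedom of their reads, so none repeats another. Alternatives were other pseudocounts, filters and scalings, weights, voom, a replicate block, all 12 libraries and leaving out each library. Upper-quartile scaling and length-trend removal without osmft1 replicate 1, and the values of runs of loci without that library or with median-ratio scaling, were added after the data were seen. Python 3.11.15, numpy 2.4.6, pandas 2.3.3, scipy 1.17.1 and matplotlib 3.10.9 were used.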

Additional observations from a re-analysis of the deposited data

How the results depend on the processing

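Against 543 calls in salt, leaving out 1 library gave 59 to 163. Library weights gave 1055, Os loci only 934, all 12 libraries 1278, median-ratio scaling 346, upper-quartile scaling 352, no filter 103 and the 2-fold threshold 269. A replicate block gave 125, although the numbers do not pair the libraries. Voom on recovered reads (802), other pseudocounts (496 with 0.1 and 503 with 5), a filter of 1 FPKM in all 6 libraries (672), removal of the 50 most abundant IDs (416) and of the length trend (552) kept the count within 1.5 times. Without osmft1 replicate 1, against 122 calls, a pseudocount of 0.1 gave 39 and a fit of the other 11 libraries 766, while median-ratio and upper-quartile scaling (134 each), length-trend removal (132) and a filter over 5 libraries (93) stayed within 1.5 times. At the OsMFT1 locus a pseudocount of 0.1 left the direction and the lack of a call. Of the 4 named loci, Os10g0344800, Os12g0597800 and Os02g0727200 kept their calls in every alternative that tested them, although the size at Os10g0344800 ran from 2.68 to 8.98 on the log2 scale, and Os01g0962700 lost its call in 4 of 18, with adjusted p (limma) up to 0.0614. Of 44 medians of chromosomes, ID classes and bands of length or level, taken relative to all IDs with median-ratio scaling or without osmft1 replicate 1, 43 moved by less than the spread between libraries. The cause of the moves in counts and medians was not tested. Fits of fewer libraries also have fewer residual degrees of freedom, and the part of this in the counts was not tested either. Counts of reads limit the precision of low IDs, and intervals cover counting error only.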

Other observations

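A second run of neighbouring loci with many calls lay on chromosome 8. The 988th to the 1000th of the 1247 tested loci there, 13 in all, were each higher in osmft1 in salt by estimate, and 4 were called, where 2.01% of all tested IDs were. Their median level was 3.54, 3.76 and 3.98 in the osmft1 salt libraries and 3.47, 3.33 and 3.26 in the WT salt libraries on log2(FPKM + 1), with no overlap. The median difference was 0.36, against 1.24 for the run on chromosome 7. Without osmft1 replicate 1 it was 0.34 and 0 of the 13 were called higher, where 92 of all 19715 tested IDs were. With median-ratio scaling it was 0.29 and 1 locus was called higher, while the run on chromosome 7 had a median of 1.15 and 3 called higher. That scaling called 181 of all 19715 tested IDs higher. In water the differences of the loci in the run on chromosome 8 had a median of -0.15. There 2 loci were called higher and 1 lower (15.8% and 8.69% of all tested IDs were). Their median level in water was 3.29, 3.15 and 3.44 in the osmft1 libraries and 2.90, 2.94 and 2.91 in the WT libraries, with no overlap. In water these 2 summaries thus pointed in opposite directions. Both runs were found from these values.

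With the values as deposited, the most abundant transcripts leaned the other way from the rest. The lean of the rest depended on scaling: with median-ratio scaling, 181 of all tested IDs were called higher and 165 lower. The bands below are given as deposited only. Of 74 IDs with a mean of at least 1000 FPKM in salt, 4 were called lower (5.41%) and 1 higher (1.35%), and their median difference was -0.18. Among 1260 IDs of 100 to 1000 FPKM, 32 were lower (2.54%) and 36 higher (2.86%), with a median of 0.06. Among 7613 IDs of 10 to 100 FPKM, 73 were lower (0.959%) and 190 higher (2.50%). Below 10 FPKM, 37 of 10768 were lower (0.344%) and 170 higher (1.58%). The difference between these bands was not tested.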
